A study of Arabidopsis thaliana with 6 samples.

Results

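The genes described here were higher in paclobutrazol-treated Arabidopsis thaliana rosettes and stood near the untreated level in gibberellin-sprayed ones. They were chosen from their measured values. On the scale of log2(intensity + 10), both PBZ arrays had to lie above all 4 other arrays, the PBZ mean at least 0.8 above the control mean and the GA mean less than 0.3 from the control mean on either side, with a mean PBZ intensity of at least 30. Of 22746 probe sets, 93 (0.409%) met these values, and 7 of them were left out by name: PDF1.2b, PDF1.2, DFR, AT4G14090 (a UGT gene known as UGT75C1), UGT78D2, LTI30 and EXPA16. The remaining 86 probe sets are the members. The annotation names 1 gene for 36 of them and several genes for 3, while 47 are unnamed here, 54.7% of the members against 38.4% of all probe sets.

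The study measured messenger RNA in whole rosettes on 6 arrays, 2 per group, from replicates called biological in the labels. PBZ plants were watered 14 days after sowing with 10 mL of paclobutrazol at 50 mg/L, which is 0.5 mg per pot, GA plants received 50 µM GA3 as a spray of 1 mL on alternate days, and control plants had no treatment. All 6 samples were Col-0 carrying 35S:HF-RPL18B, a tagged ribosomal protein under the broadly active 35S promoter, grown on soil with 16 h of light; the labels describe no mock watering or mock spray of the controls. The sample titles give day 27 for the harvest and another label of the same samples gives day 25. The labels name total RNA, and their protocol also describes RNA pulled down with the tagged ribosomes.

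Gibberellins are growth hormones that act by having DELLA proteins, repressors of growth genes, broken down after the hormone binds its GID1 receptors. Paclobutrazol is a triazole that blocks ent-kaurene oxidase, a cytochrome P450 early in gibberellin synthesis, and gives dwarf, dark green plants with more DELLA protein. DELLA proteins also bind JAZ repressors of the jasmonate pathway, which controls wound and insect defence and anthocyanin production. Triazoles can act on other plant P450 enzymes as well.

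Because the rule used all 6 arrays, PBZ minus control and GA minus control of the members are given as descriptions, with the standard error (SE) of the fit and no test. Arrays of the same group correlated at 0.981 to 0.988 and arrays of different groups at 0.967 to 0.986 (Pearson r across probe sets), and the median SE of PBZ minus control was 0.16 with 2 arrays a group. Whole rosettes were measured, so more cells of a type and more RNA per cell cannot be told apart. Of the leaf markers with a named probe set, RCA (Rubisco activase) read 4237 and 4196 in PBZ, 4237 and 4178 in GA and 4741 and 3858 in control rosettes. LHCB4.3, a light-harvesting protein, read 774.3 and 742.7 in PBZ, 471.3 and 506.8 in GA and 565.8 and 508.6 in control rosettes (PBZ minus control 0.49, limma adjusted p = 0.186); its part in the results was not tested. The root hair gene EXPA7 read 12.4 or less on every array, and CLV3, a marker of the shoot meristem, 9.4 or less.

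Among the members, PBZ minus control ran from 0.80 to 3.61 with a median of 1.08, while GA minus control ran from -0.29 to 0.30 with a median of -0.041. The medians over all 22746 probe sets were 0.025 and -0.021. GA minus control was positive for 37 members and negative for 49. A PBZ minus control difference of 2 or more, which is at least 4-fold on this scale, was reached by 9 members, and 34 members stayed under 1. In 21 members the lower PBZ array was more than 2-fold above the highest of the other 4 arrays, counted as intensity + 10. Of all probe sets, 15.5% had both PBZ arrays above the other 4, so the separation by itself is common on these arrays. In limma's test over all probe sets with Benjamini-Hochberg adjustment, 17 members passed an adjusted p of 0.05 in PBZ against control, where 0.233% of all probe sets passed as higher; since the rule used the same values, nothing is read from this count. In a fit of the PBZ and control arrays alone, which has fewer arrays to estimate the spread, 0 members passed.

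**Figure D1:**
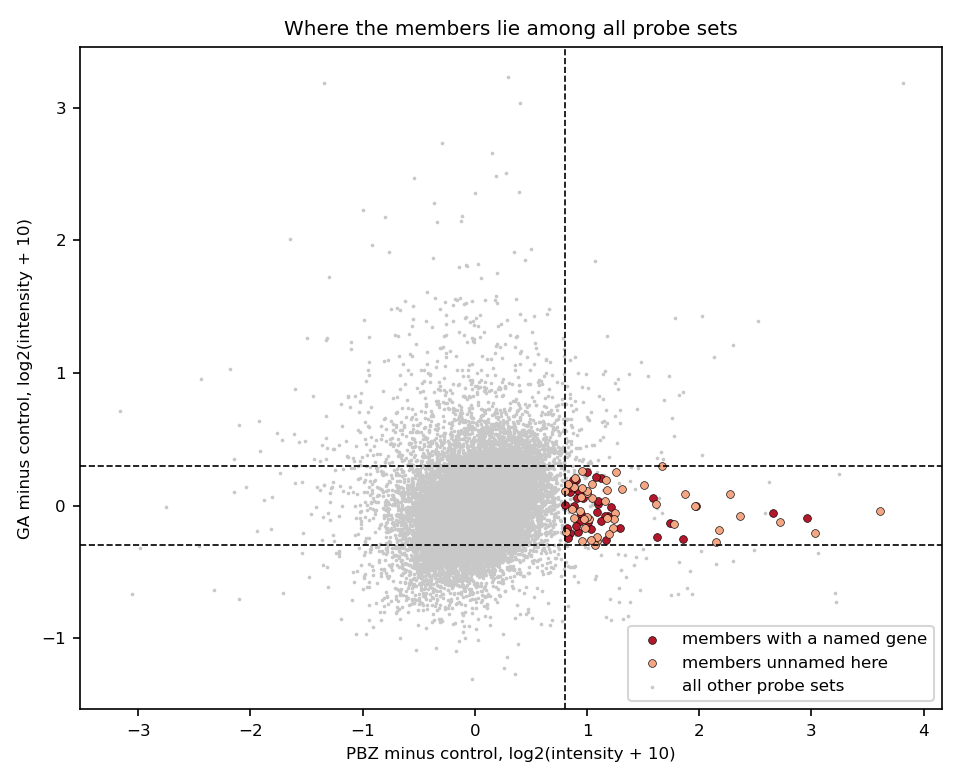
Each point is 1 probe set, placed by PBZ minus control (horizontal axis) and GA minus control (vertical axis), both on the scale of log2(intensity + 10), with the 86 members coloured and dashed lines at 0.8 and at 0.3 to either side of 0. The members fill the band to the right of 0.8, from 0.80 to 3.61, and grey points inside the band failed another criterion or were left out by name.

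The anthocyanin group held 3 of the 39 annotated members. AT1G03495 and AT1G03940, which share 1 probe set, encode acyltransferases that add a coumaroyl group to anthocyanins. This probe set read 93.0 and 110.6 in PBZ, 1.6 and 5.5 in GA and 3.1 and 5.6 in control rosettes. All 4 arrays outside PBZ were under 10, the amount added before taking logs, and PBZ minus control was 2.96 (SE 0.19), the highest among the annotated members. Which of these genes was measured cannot be told from a shared probe set. AT5MAT (AT3G29590), a malonyltransferase that acts on anthocyanins, read 38.9 and 38.5 in PBZ, 6.7 and 15.4 in GA and 11.9 and 11.6 in control rosettes (PBZ minus control 1.16, SE 0.21). Here the GA arrays lay further apart than the PBZ arrays. CHIL (AT5G05270), a chalcone isomerase-like protein that helps chalcone synthase make its product, read 107.6 and 88.0 in PBZ, 22.6 and 36.6 in GA and 36.1 and 31.7 in control rosettes (1.29, SE 0.21). The GA and control arrays of CHIL overlapped.

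Defence and wound genes made up 10 probe sets, with PBZ minus control from 0.83 to 2.66. Roles were assigned after the members were known, so no share over all probe sets stands beside this count. AT4G12490, of a family of small lipid-transfer-like proteins of the cell wall, read 321.0 and 1097 in PBZ, 72.8 and 92.5 in GA and 72.4 and 101.4 in control rosettes. The PBZ arrays differed over 2-fold, which happened in 2 of the 86 members, and PBZ minus control was 2.66 (SE 0.53). Without PBZ replicate 1 it was 3.53 and without PBZ replicate 2 it was 1.79. AT1G26390, which encodes an oxidase of the berberine bridge enzyme-like family, read 46.5 and 64.1 in PBZ, 4.8 and 8.4 in GA and 3.4 and 10.4 in control rosettes (1.97, SE 0.25). AT2G38240 belongs to the oxygenases that inactivate jasmonate by hydroxylation, the enzyme family of the gene JRG21. It read 33.7 and 32.8 in PBZ, 1.9 and 8.8 in GA and 2.8 and 6.2 in control rosettes (1.59, SE 0.24), so the gene was near the bottom of the intensity scale wherever paclobutrazol was absent.

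Several of the defence members encode secreted proteins that act on microbes or insects. AT5G33355 and AT3G59930, defensin-like genes on 1 shared probe set, read 62.6 and 60.8 in PBZ, 6.5 and 13.5 in GA and 11.4 and 15.2 in control rosettes (1.63, SE 0.20). The chitinase-family gene AT2G43590 read 95.1 and 139.4 in PBZ, 53.7 and 58.9 in GA and 42.2 and 53.2 in control rosettes (1.13, SE 0.20). ChiC (AT4G19810), a class V chitinase, read 44.1 and 34.8 in PBZ, 15.8 and 9.5 in GA and 12.3 and 14.1 in control rosettes (1.09, SE 0.18). Chitinases cut the chitin of fungal walls, and both of these were about 2-fold brighter in PBZ (2.18-fold and 2.12-fold on this scale). AT2G38870, a protease inhibitor of the potato type I family, read 469.2 and 931.8 in PBZ, 273.9 and 273.2 in GA and 254.6 and 348.5 in control rosettes. Its difference of 1.13 (SE 0.33) was 1.61 without PBZ replicate 1 and 0.64 without PBZ replicate 2.

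JAL34 (AT3G16460) encodes a jacalin-related lectin, a sugar-binding protein. It read 115.1 and 80.4 in PBZ, 29.5 and 29.2 in GA and 32.8 and 42.0 in control rosettes (1.17, SE 0.19), with both GA arrays just below both control arrays. Of 3 other JAL genes found by symbol or synonym, 0 passed limma's test in PBZ against control. Over all probe sets 0.514% passed in either direction, so 0 of 3 was likely beforehand and nothing is read from it. Relatives listed by locus code without such a synonym were not counted. The median PBZ minus control of these 3 was 0.78. JAL33 (AT3G16450) had 1.29 and JAL22 (AT2G39310) 0.78, with GA minus control at -0.73 and -0.87, outside the band that defines the members. JAL23 (AT2G39330) had 0.33. AT4G33560 and AT4G28240, both of a small family named for its response to wounding, differed in how far the control arrays spread. AT4G33560 read 54.0 and 39.2 in PBZ, 12.4 and 22.5 in GA and 16.0 and 16.6 in control rosettes (1.09, SE 0.22). AT4G28240 read 621.5 and 727.0 in PBZ, 294.8 and 334.9 in GA and 530.9 and 263.6 in control rosettes (0.83, SE 0.31). Without control replicate 1 the difference for AT4G28240 was 1.32, and without control replicate 2 it was 0.33.

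**Figure D2:**
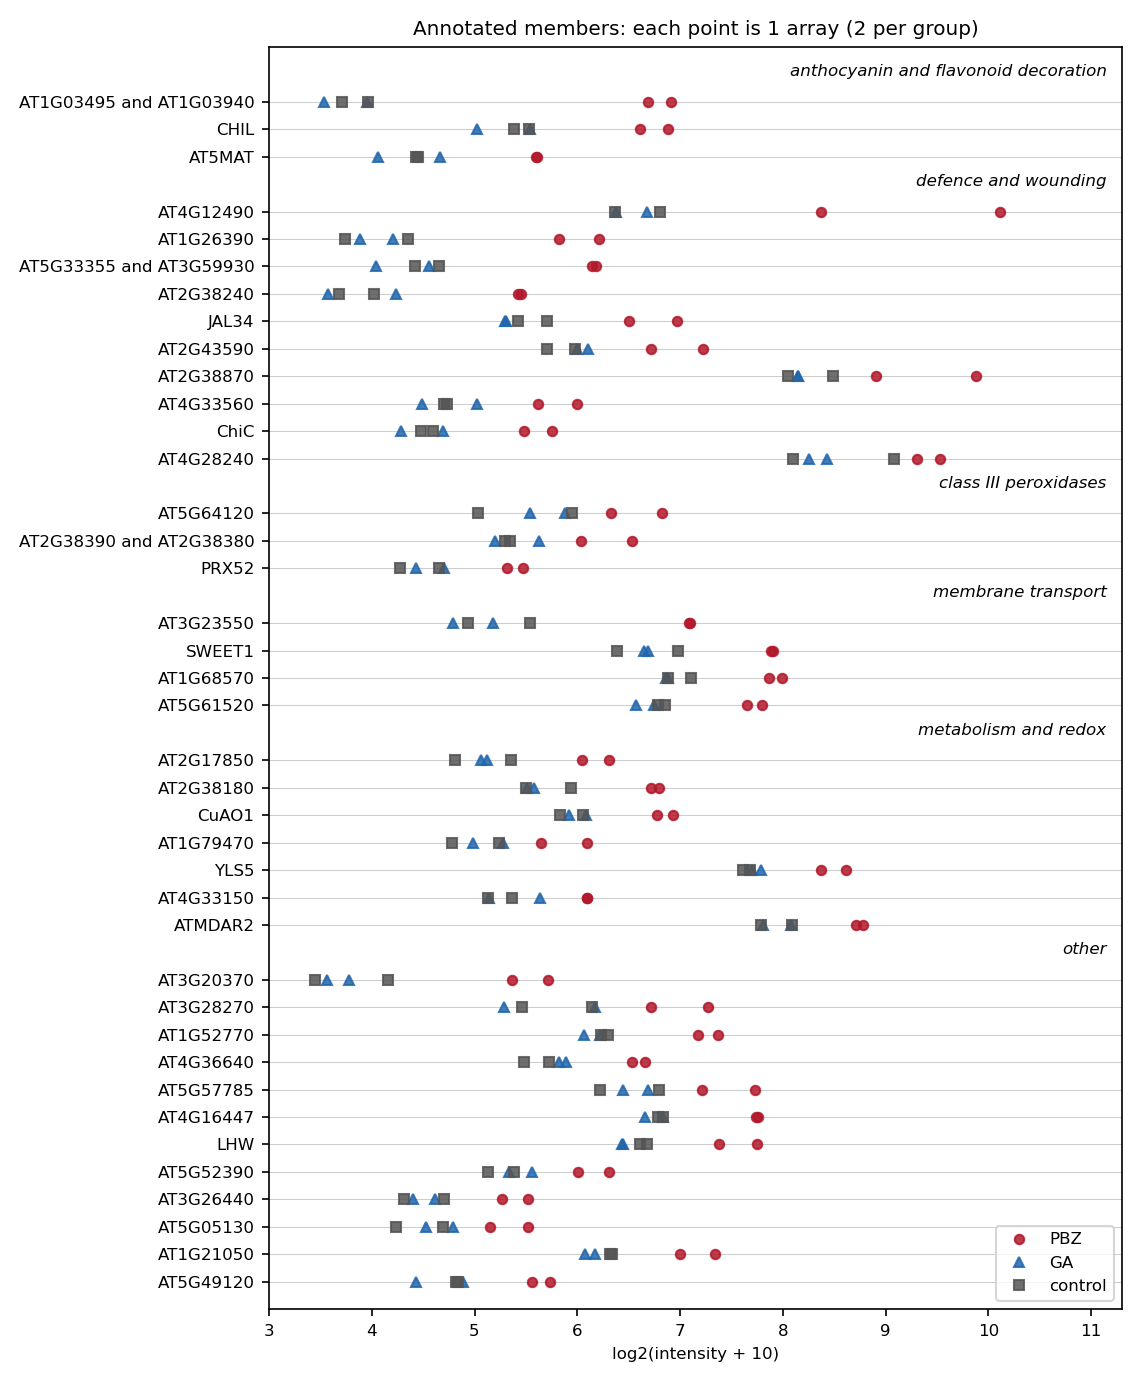
Intensity of the 39 annotated members on each of the 6 arrays, as log2(intensity + 10), grouped by role and ordered within a role by PBZ minus control; circles are PBZ, triangles GA and squares control. The PBZ circles lie to the right of every other symbol, as the rule requires, while GA and control symbols are interleaved for most genes; AT4G28240 has a control array at 530.9 close to its lower PBZ array at 621.5.

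Class III peroxidases, secreted enzymes that cross-link or loosen cell wall polymers with hydrogen peroxide, made up 3 members. AT5G64120 (PRX71) read 103.3 and 70.3 in PBZ, 36.6 and 48.7 in GA and 22.8 and 51.8 in control rosettes (1.08, SE 0.33). The control arrays of PRX71 were over 2-fold apart, and its difference was 0.63 without control replicate 1 and 1.54 without control replicate 2. AT2G38390 and AT2G38380, peroxidase genes that share a probe set, read 82.6 and 55.4 in PBZ, 39.5 and 26.8 in GA and 29.3 and 30.6 in control rosettes (0.96, SE 0.22). PRX52 (AT5G05340), which takes part in lignin formation, read 29.7 and 34.5 in PBZ, 11.6 and 16.0 in GA and 9.4 and 15.1 in control rosettes (0.93, SE 0.18). All 3 had a positive GA minus control, from 0.096 to 0.22, but each was smaller than its SE (0.18 to 0.33). No direction is read from these values. Of 4 other genes listed as peroxidases by symbol or synonym, 0 passed limma's test in PBZ against control. As 0.514% of all probe sets passed in either direction, 0 of 4 was likely beforehand and nothing is read from it. The median PBZ minus control of these 4 was 0.24, with a range from -0.019 to 0.90. The upper end was Prx37 (AT4G08770), with a mean PBZ intensity under 30. It read 23.8 and 30.4 in PBZ, 6.4 and 7.6 in GA and 6.3 and 14.1 in control rosettes.

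Membrane transport proteins accounted for 4 members. AT3G23550, a MATE-family efflux transporter, read 126.5 and 126.2 in PBZ, 17.7 and 26.2 in GA and 20.6 and 36.4 in control rosettes (1.86, SE 0.23). Its PBZ arrays were nearly identical and 3.62-fold above control on this scale. SWEET1 (AT1G21460), a glucose transporter of the plasma membrane, read 226.0 and 230.2 in PBZ, 93.1 and 90.4 in GA and 73.8 and 116.0 in control rosettes (1.21, SE 0.20). The GA arrays of SWEET1 lay between the control arrays. Among 15 other SWEET genes found by symbol or synonym, 0 passed limma's test in PBZ against control. With 0.514% of all probe sets passing in either direction, 0 of 15 was likely beforehand and nothing is read from it. The median PBZ minus control of these 15 was -0.15, with a range from -0.48 for SWEET17 (AT4G15920) to 0.75 for SWEET7 (AT4G10850).

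Other carriers of small molecules were AT1G68570 and AT5G61520. AT1G68570 (NPF3.1), known as a gibberellin transporter of the root endodermis and of the NRT1/PTR family that also moves nitrate, read 222.7 and 244.2 in PBZ, 108.1 and 106.4 in GA and 127.7 and 107.9 in control rosettes (0.93, SE 0.14). It was 1 of 4 annotated members that met the whole rule under each of 10 other settings, namely other pseudocounts, other scalings and each array left out. Among 10 other NPF genes found by symbol or synonym, 0 passed limma's test in PBZ against control. With 0.514% of all probe sets passing in either direction, 0 of 10 was likely beforehand and nothing is read from it. For these 10 the median PBZ minus control was -0.16, from -0.60 to 0.67. AT5G61520, a hexose transporter of the plasma membrane, read 212.0 and 190.5 in PBZ, 97.6 and 85.3 in GA and 100.4 and 105.3 in control rosettes (0.90, SE 0.13).

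**Figure D3:**
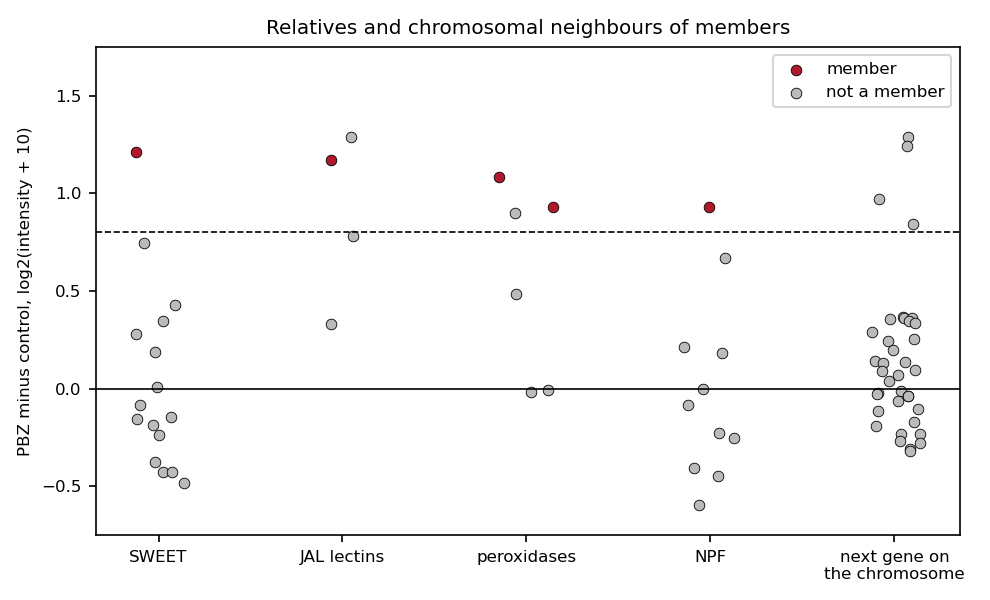
PBZ minus control, on the scale of log2(intensity + 10), for genes of 4 families and for genes directly next to members on the chromosome. Each point is 1 gene, with members in red, and family genes were found by symbol or synonym. The dashed line marks 0.8, which the rule required of members, so their place above it was fixed by the choice; JAL33 at 1.29, no member, is above the member JAL34 at 1.17.

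Enzymes of metabolism and redox reactions gave 7 members with smaller differences, from 0.80 to 1.095. AT2G17850, of the rhodanese family, read 69.2 and 56.0 in PBZ, 24.8 and 23.5 in GA and 18.0 and 30.9 in control rosettes (1.095, SE 0.21). AT2G38180, of the SGNH hydrolase family of esterases, read 100.7 and 95.2 in PBZ, 37.7 and 35.5 in GA and 35.3 and 51.3 in control rosettes (1.03, SE 0.17). CuAO1 (AT1G62810), a copper amine oxidase that degrades polyamines and releases hydrogen peroxide, read 112.3 and 99.4 in PBZ, 57.8 and 50.5 in GA and 56.3 and 47.1 in control rosettes (0.91, SE 0.14). Its GA and control ranges overlapped. AT1G79470, inosine monophosphate dehydrogenase of guanine nucleotide synthesis, read 58.4 and 40.2 in PBZ, 21.6 and 28.7 in GA and 17.4 and 27.7 in control rosettes (0.87, SE 0.23). YLS5 (AT2G38860), a DJ-1 family protein first named from yellowing leaves, read 382.5 and 321.6 in PBZ, 197.8 and 211.5 in GA and 194.8 and 185.6 in control rosettes (0.85, SE 0.14). It lies directly beside the protease inhibitor gene AT2G38870, with 0 protein-coding genes between them, and this was the only pair of adjacent members among the 36 placed on the chromosomes. AT4G33150 (LKR/SDH), the bifunctional enzyme that starts lysine breakdown, read 58.3 and 58.1 in PBZ, 39.7 and 25.3 in GA and 25.0 and 31.2 in control rosettes (0.84, SE 0.19). ATMDAR2 (AT5G03630), a monodehydroascorbate reductase that regenerates ascorbate, read 408.5 and 428.6 in PBZ, 214.3 and 259.8 in GA and 211.6 and 262.3 in control rosettes. It was the member closest to the limit, at 0.80 (SE 0.16).

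The remaining 12 annotated members had no role in common. AT3G20370, of the TRAF-like family, read 42.5 and 31.2 in PBZ, 1.8 and 3.7 in GA and 7.8 and 0.9 in control rosettes (1.74, SE 0.26), with every array outside PBZ under 10. AT3G28270 read 94.9 and 144.9 in PBZ, 62.1 and 28.9 in GA and 60.8 and 34.1 in control rosettes (1.19, SE 0.38). Its GA and control arrays were spread alike. AT1G52770, of the NPH3 family named for phototropism, read 154.9 and 134.4 in PBZ, 64.5 and 56.9 in GA and 65.1 and 68.8 in control rosettes (1.00, SE 0.13). AT4G36640, a Sec14-like lipid transfer protein, read 82.7 and 90.9 in PBZ, 49.3 and 46.6 in GA and 42.8 and 34.6 in control rosettes (0.99, SE 0.14), and here both GA arrays lay above both control arrays. LHW (AT2G27230), a bHLH transcription factor that sets up vascular tissue in the root, read 204.3 and 156.9 in PBZ, 76.5 and 77.1 in GA and 92.3 and 87.5 in control rosettes (0.92, SE 0.15). In LHW both GA arrays lay below both control arrays. The other 7 were AT5G57785, AT4G16447, AT5G52390, AT3G26440, AT5G05130, AT1G21050 and AT5G49120, with differences from 0.82 to 0.96. AT4G16447 was the tightest of them, with 204.1 and 207.1 in PBZ, 91.0 and 103.9 in GA and 104.3 and 100.1 in control rosettes (0.94, SE 0.12).

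The 47 members without a gene name held most of the large differences, 7 of the 9 members at 2 or more. Their PBZ minus control ran from 0.81 to 3.61 with a median of 1.09, against a median of 1.00 in the annotated members. The highest of all members was the probe set 266142_at, which read 418.8 and 817.7 in PBZ, 39.3 and 35.6 in GA and 19.0 and 71.9 in control rosettes (3.61, SE 0.52). Its control arrays lay to either side of the GA arrays. The next unnamed one, 260101_at, read 156.5 and 273.1 in PBZ, 14.2 and 11.8 in GA and 10.8 and 23.9 in control rosettes (3.03, SE 0.32). In limma's test 13 of the 47 and 4 of the 39 annotated members passed as higher in PBZ, where 0.233% of all probe sets did. These counts rest on the values that chose the members, so nothing is read from them or from their difference.

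Among all members, PBZ replicate 2 was above PBZ replicate 1 in 40 and below it in 46. Control replicate 2 was above control replicate 1 in 62 of 86, or 72.1%, against 49.2% of all probe sets; its part in the results was not tested. Without control replicate 1, 68 probe sets met the rule, 52 of them members, and without control replicate 2, 90 did, 63 of them members. Without PBZ replicate 1 the rule was met by 130 probe sets, of which 75 were members, and without PBZ replicate 2 by 103, of which 71 were members. By chromosome, the 36 genes were spread as 7, 7, 6, 7 and 9 over chromosomes 1 to 5 (19.4, 19.4, 16.7, 19.4 and 25.0%). Of all probe sets naming 1 gene on these chromosomes, the shares were 25.9, 16.5, 20.5, 14.6 and 22.5%. Probe sets of the plain type made up 93.0% of the members and 95.3% of all, and the other 6 members were of types that can bind related transcripts.

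**Figure D4:**
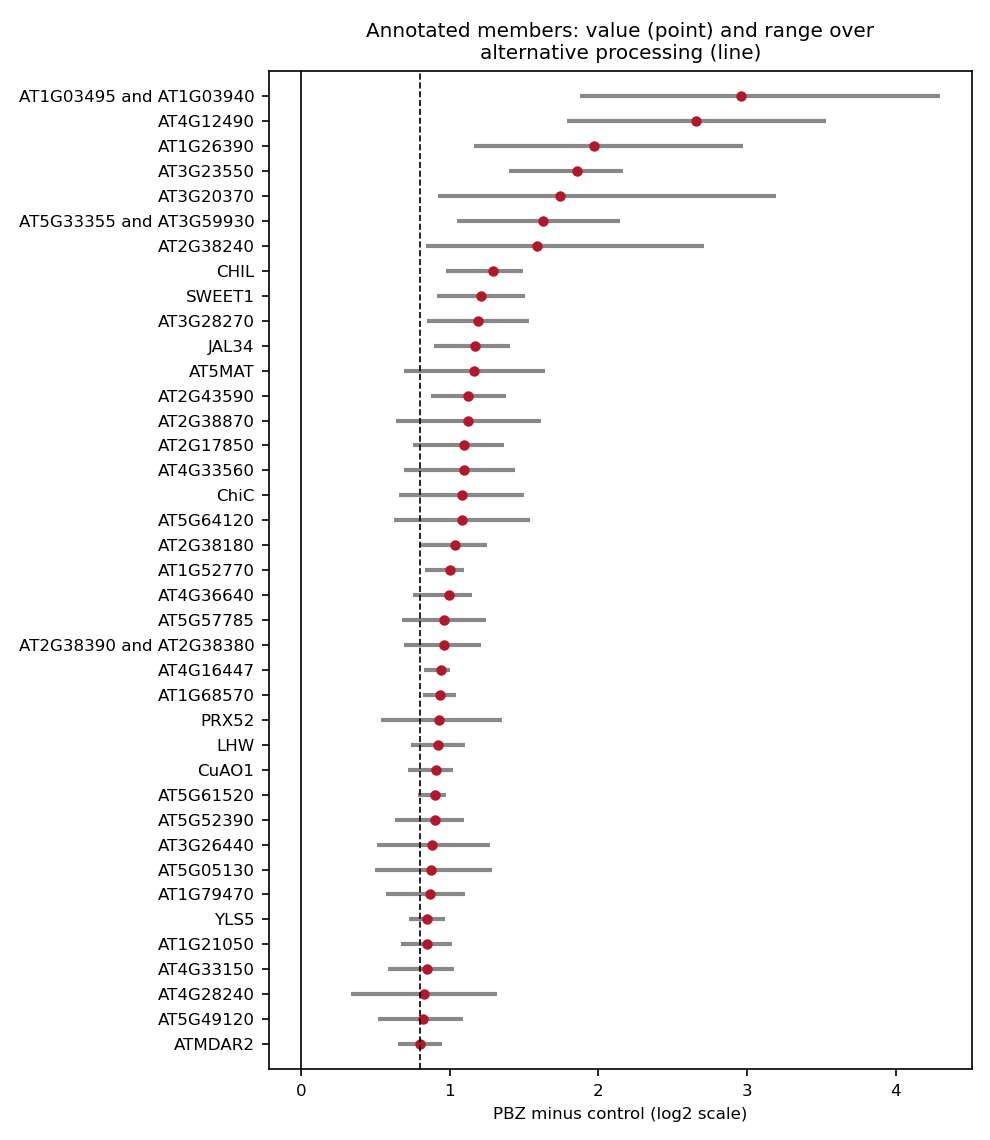
PBZ minus control on the log2 scale for the 39 annotated members (points), with lines from the lowest to the highest value over other pseudocounts, other scalings, probe set filters, the replicate block and each array left out; the dashed line marks 0.8. No line reaches 0, which the rule's separation of the arrays largely fixed in advance. For 15 of the 39 the line stays at or above 0.8, and the widest lines are those of dim genes such as AT3G20370 (0.92 to 3.19).

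Values on both sides of each limit show how close the choice was. Just inside 0.8 were ATMDAR2 at 0.80 and 264956_at at 0.81, and just outside were 266746_s_at and 252984_at, at 0.79 and 0.78. For GA minus control, 264400_at at 0.30 (0.296 before rounding) and 261866_at at -0.29 were inside, while CLE41, a gene for a peptide signal of vascular development, and 248200_at, at -0.30 and -0.31, were outside. The mean PBZ intensity was 30.75 for AT5G05130 and 30.85 for 245148_at inside, and 29.05 for 250611_at and 27.95 for AT4G39675 outside.

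Other genes of the hormone and defence pathways were read from lists by locus code. Of 164 genes on 13 pathway lists, 18 had a named probe set of their own, in 6 lists, and 0 of these 18 were members. Measured here means named by the annotation on a probe set for that gene alone. As 38.4% of all probe sets are unnamed, genes not counted may lie on unnamed ones. By this count the gibberellin synthesis, brassinosteroid and sterol, salicylate, ethylene, lignin, nutrient and senescence lists had 0 measured genes. In PBZ against control 3 of the 18 rose and 0 fell (limma, adjusted p under 0.05), where 0.233% of all probe sets rose and 0.281% fell. All 3 were on the flavonoid list, of which 4 of 14 genes were measured and whose median PBZ minus control was 2.37, against 0.025 over all probe sets. These were DFR, AT4G14090 and UGT78D2 (the last at a limma adjusted p of 0.0482), which met the values of the rule and were left out of it by name. Their calls rest on the same values as the rule, so nothing is read from this count. The list's median rests mostly on the same 3 genes, so nothing is read from it either. DFR (AT5G42800), the reductase that leads into anthocyanins, read 143.7 and 150.8 in PBZ, 20.0 and 17.8 in GA and 14.5 and 16.7 in control rosettes. UF3GT (AT5G54060), a xylosyltransferase of anthocyanins, had 2.15 (SE 0.31, limma adjusted p = 0.0643). Without either PBZ array or either control array 0 of all probe sets passed in PBZ against control, and without either GA array 4 did. In GA against control 0 of the 18 passed, where 0% of all probe sets passed and 1931 had an unadjusted p under 0.05.

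The gibberellin perception list had 7 of 13 genes measured, 0 of which passed in PBZ against control, and a median PBZ minus control of 0.75 beside a median GA minus control of -0.35. Its smallest p-values belonged to GID1B (AT3G63010), a gibberellin receptor, and XERICO (AT2G04240), a RING finger protein of the abscisic acid response. GID1B read 42.4 and 52.9 in PBZ, 4.4 and 9.2 in GA and 10.6 and 16.4 in control rosettes (1.30, SE 0.21, limma adjusted p = 0.0788). XERICO read 516.8 and 670.2 in PBZ, 100.7 and 148.8 in GA and 244.1 and 217.5 in control rosettes (1.32, SE 0.22, adjusted p = 0.0854). In both, the GA arrays lay below the control arrays, with GA minus control at -0.49 and -0.86, outside the band of the members.

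On the remaining lists with measured genes, 0 passed in either comparison. The jasmonate list had 1 of 13 genes measured, the thionin THI2.1 (AT1G72260), which averaged 34.45 ± 18.3 in PBZ, 12.25 ± 1.48 in GA and 20.0 ± 7.50 in control rosettes (SD, n = 2 each; PBZ minus control 0.53, SE 0.31, limma adjusted p = 0.530). COR47 (AT1G20440) and COR15A (AT2G42540), cold and drought proteins of the abscisic acid list with 2 of 17 genes measured, had PBZ minus control of -0.36 and -0.22. The cytokinin response regulators RR16 (AT2G40670) and ARR15 (AT1G74890), 2 of 9 on their list, had -0.71 (SE 0.13, limma adjusted p = 0.109) and -0.38. UGT74B1 (AT1G24100) and BCAT4 (AT3G19710), 2 of 18 genes of glucosinolate synthesis, had 0.17 and -0.073. Of 35 marker genes on 6 lists of leaf, flower, root, epidermal, phloem and meristem cells 5 were measured, and 0 passed in either comparison.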

How the data were processed

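The deposited table holds a linear intensity for each probe set on each array, with the same trimmed mean (100.01) on all 6, which shows a scaling to 1 level before deposit. The submitters' processing notes name RMA and affy, although RMA returns log2 values; how the linear intensities were made is otherwise not stated in the labels. Groups came from the sample titles. The 64 control probe sets were left out. Intensities were analysed as log2(intensity + 10), with 26.8% to 29.4% of values per array under 10, so that differences of dim probe sets are understated. R 4.3.3 with limma 3.58.1 fitted 1 mean per group to all 6 arrays (3 residual degrees of freedom), with eBayes and Benjamini-Hochberg adjustment over 22746 probe sets. With 2 arrays a group, their number limits the precision. Each p-value sets a difference against an estimated spread. That estimate comes from these samples and from a prior over all probe sets (3.07 prior degrees of freedom).

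Members and gene lists were chosen with earlier results of these data known. Genes were named from the platform annotation, updated through the RefSeq gene table (TAIR10.1), which gave all 36 members with 1 gene a match; 10 have a symbol of their own. An unnamed probe set could not be checked against the names left out. Roles of genes listed by locus code are background knowledge, and the grouping by role was made after the members were known. The naming rule covered members with a symbol, the 10 locus-code genes with the largest difference, the top 4 of each role, the values next to each limit and the leading genes of each list; other members, gene family relatives and neighbours were added after their values were seen. For a gene with several probe sets outside the members, the one with the highest mean was used. No DNA or protein sequence was used here. On simulated data with 100 probe sets changed by each size, the test called 76% of changes of 1 and 100% of changes of 2 in PBZ against control, with 14 false calls among 22546. The changed probe sets were picked from the brighter ones only. The noise was independent and normal, with the spread that the fit had estimated. These shares therefore do not hold for dim probe sets.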

Additional observations from a re-analysis of the deposited data

How the results depend on the processing

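With 2 arrays a group, the counts of calls changed when any array was left out and with the treatment of dim probe sets. A fit with fewer arrays also has fewer residual degrees of freedom, and the part of this in the changes was not tested. The number of probe sets that met the rule was 86, between 65 and 103 with pseudocounts of 32 and 1, other scalings or probe set filters, and 68 to 130 with each array left out. Under 10 of these settings, the filters aside, 17 members met the rule every time, 4 of them annotated (AT4G12490, AT4G16447, AT1G52770 and AT1G68570), and 6 met it fewer than 6 times. Over 496 recomputed differences of annotated members 0 changed sign. The rule's separation of the arrays fixes the sign under other pseudocounts or with an array left out, so nothing is read from this. Leaving out a GA array, adding the replicate block or filtering probe sets left each difference unchanged by construction. Of the 496, 74 moved by more than the spread between replicates, 42 of these through the pseudocount (16 with a pseudocount of 1 and 26 with 32), and the cause was not tested. In PBZ against control 117 probe sets passed; the count was 0 with a pseudocount of 1, 248 with 32, 548 without the 40% dimmest probe sets, 333 when the variance prior followed intensity, 4 in a fit of these groups alone and 0 to 4 with each array left out (0 without either PBZ or either control array). At the main setting 3121 had an unadjusted limma p under 0.05, and 2596 with a pseudocount of 1. In GA against control, where 0 passed, 193 passed without the dimmest probe sets, 51 with that prior and 1 with the replicate block. The replicate block left 47 calls in PBZ against control; arrays of the same number did not deviate together (correlations of -0.00077 to 0.031), so the numbers give no pairing.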

Other observations

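Of the genes directly next to members on the chromosome, 37 had a probe set of their own and were no members. The rule was applied to these as to all probe sets, and neighbours that met it (AT2G38870 and YLS5) are members, so the values of the rest are a description from which nothing is read. Their PBZ minus control ran from -0.32 to 1.29 with a median of 0.092. Of the 37, 21 had a positive difference. The highest 3, chosen after their values were seen, each belong to the family of the member beside them. This pick from the top gives no pattern for relatives in general. Beside the chitinase ChiC, AT4G19820 had 0.20, and beside the peroxidase AT5G64120, AT5G64110 had -0.062. JAL33 (AT3G16450), beside JAL34, averaged 100.1 in PBZ, 17.2 in GA and 36.1 in control rosettes (PBZ minus control 1.29, GA minus control -0.73). AT1G26380, beside AT1G26390 and also of the berberine bridge enzyme-like family, averaged 18.0 in PBZ, 9.0 in GA and 1.85 in control rosettes (PBZ minus control 1.25), while AT1G26400 on the other side had -0.32. AT2G43580, a chitinase-family gene beside AT2G43590, averaged 15.2 in PBZ, 0.65 in GA and 3.0 in control rosettes (PBZ minus control 0.97), and AT2G43600 on the other side was at 0.85 or less in each group mean. Probe sets of such close relatives can bind each other's transcripts, which was not tested here.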
